A study of Mus musculus with 6 samples.

Results

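Chemokines are small secreted proteins that direct the migration of leukocytes, and they act through G protein-coupled receptors on the target cell. The genes described here are the protein-coding rows of the count table that carry a Ccl, Cxcl, Ccr, Cxcr or Ackr name with a number, together with Cx3cl1, Xcl1 and Xcr1. The values of 64 such rows are given, out of 54532 rows with a gene name, and they carry 58 different names, because Ccl19, Ccl21a, Ccl21b, Ccl21c and Ccl27a each have more than 1 annotated copy. They were measured in kidneys of mice labelled Lpar3-/-, a genotype deficient in the lysophosphatidic acid receptor LPAR3, and of wild-type (WT) mice. Both genotypes spent 12 h at 8% oxygen and normal pressure, and mRNA was sequenced in 3 libraries per genotype. Every comparison is between genotypes under hypoxia, because normoxic kidneys are not part of the libraries used here. Neither the strain, age and sex of the mice nor the deleted part of the gene is stated in the labels.

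CC and CXC chemokines are named for the spacing of their first cysteines. Some ligands are made constantly and keep cells in place, such as Cxcl12, which holds CXCR4-bearing cells in their niches, whereas others are induced in inflammation, such as Ccl2, Cxcl1 and Cxcl10. Inducible chemokine genes are known targets of the transcription factor NF-κB, and the CXCR3 ligands Cxcl9 and Cxcl10 are known interferon-induced genes. The atypical receptors (Ackr genes) bind chemokines without G protein signalling, and several of them remove chemokines from the tissue.

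The libraries labelled Lpar3-/- held 15988010 to 17743598 counts and the WT libraries 15953794 to 17940438, and the 64 rows took 6188 to 6528 and 5899 to 7607 of these. Lpar3 itself had 672, 592 and 580 counts in the libraries labelled Lpar3-/-, against 645, 634 and 577 in WT, so the counts per gene do not set the genotypes apart at the targeted gene and every direction below rests on the labels. Nothing in the labels ties each library to its own animal, and every p-value here reflects library-to-library spread that may be technical. WT replicate 2 stood apart from the other libraries for many of the genes described here, and values without it are given where it moved them most. Across all genes, 57 of 15225 tested were called (adjusted p under 0.05, Benjamini-Hochberg, in the quasi-likelihood test of edgeR), which is 0.374%.

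Chemokine expression in these kidneys was dominated by a few genes. Of the 64 rows, 12 had 0 counts in all libraries, 34 had at least 1 count but did not pass the expression filter, and 18 were tested, namely 13 ligands, 2 signalling receptors and 3 atypical receptors. The rows at 0 were Ackr1, Cxcr1, Ccl26, Ccl27b and the annotated copies of Ccl19, Ccl21b and Ccl21c, with a copy of Ccl21a and of Ccl27a. A count of 0 allows up to 3 counts in a library, by counting error alone. Genes near-identical to each other share reads, so the copies of Ccl19, Ccl21 and Ccl27 are uncertain. At least 1 count was found for 38 to 40 of the rows in the libraries labelled Lpar3-/-, and for 38, 48 and 41 in WT replicates 1 to 3.

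Per unit of gene length, the most abundant ligand was Cxcl12 (ENSMUSG00000061353, GRCm38 chromosome 6, 117168535 to 117181367, plus strand). Its level was 19.6, 20.9 and 21.9 FPKM in the libraries labelled Lpar3-/-, against 17.1, 19.9 and 21.4 FPKM in WT. Ackr3 (chromosome 1, 90203980 to 90216751, plus strand), the atypical receptor that takes up CXCL12, followed at 19.9, 22 and 19.5 FPKM in the libraries labelled Lpar3-/-, against 21, 17.5 and 20.6 FPKM in WT. The levels of these genes overlapped in both genotypes, so their order is not resolved. Cxcl16 and Cx3cl1, which encode the chemokines made as membrane proteins and shed by proteases, came next with means of 14.5 and 12.1 FPKM over the 6 libraries. Cxcl16 lay above Cx3cl1 in all libraries labelled Lpar3-/- (13.4 to 15.3 against 11.1 to 11.7 FPKM), and their ranges overlapped in WT (11.6 to 20.2 against 11.2 to 15.5 FPKM). Ccl28 (4.56 FPKM), a mucosal chemokine, and Cxcl14 (3.19 FPKM) followed. All other tested members had a mean of at most 2.10 FPKM, the value of Ccl5. Among the signalling receptors, Cxcr4 was the most abundant with a mean of 1.54 FPKM, ahead of Ccr2 at 0.500 FPKM.

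**Figure D1:**
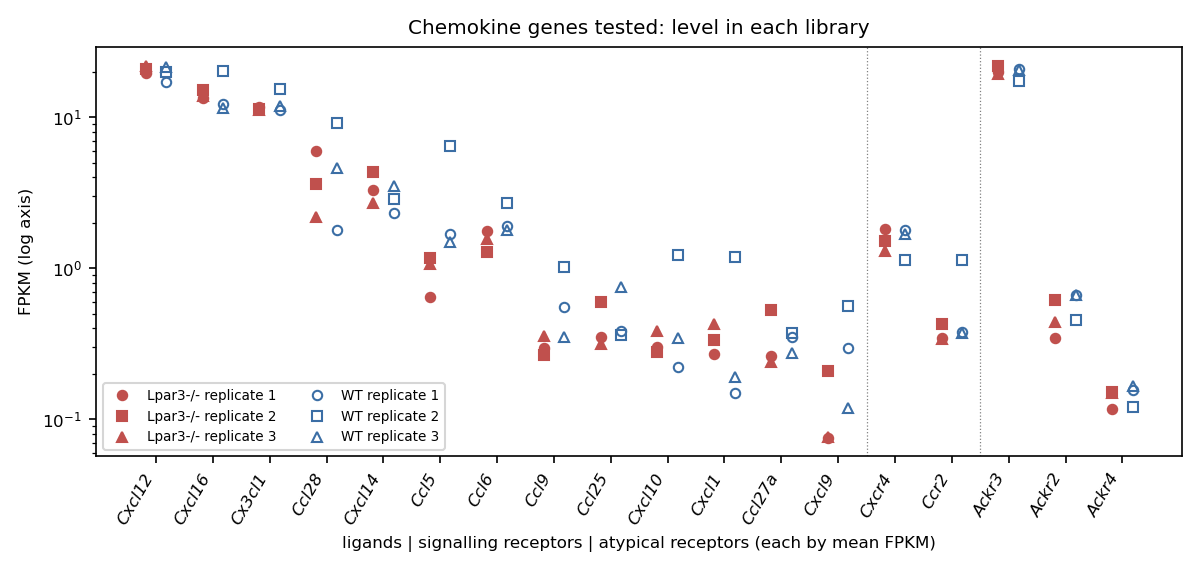
Level of each tested chemokine or receptor gene in FPKM (log axis) in every library, with filled red symbols for Lpar3-/- and open blue symbols for WT. Cxcl12 and Ackr3 lie near 20.2 and 20.1 FPKM in both genotypes, while WT replicate 2 (open square) lies above the other libraries for many of the scarcer ligands.

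None of the 18 genes passed the test over all genes. EdgeR called 0 of the 18 tested members, against 0.374% of all genes tested, and 3 (Ccl5, Ccl9 and Cxcl9) had an unadjusted p under 0.05, against 9.18% of all genes. All 3 were lower in the libraries labelled Lpar3-/-, where 5.21% of all genes were lower at that threshold. DESeq2 called 0 of 23 members with an adjusted p, against 1.10% of all genes, and 5 of 52 had an unadjusted p under 0.05, against 4.47%. Limma-voom called 0 of 18, against 0.361%, with 1 (Ccl5) at an unadjusted p under 0.05, against 8.85%. Negative fold changes were found for 13 of the 18 with edgeR, against 51.1% of all genes, and for 35 of 52 with DESeq2, against 51.4%. The edgeR values had a median log2 fold change of -0.30, where the median over all genes was -0.0036. Without WT replicate 2, 11 of 19 tested members were negative, again against 51.1% of all genes, and their median was -0.030. By class, 6 of 14 ligands were negative there (median 0.10), where all libraries gave 10 of 13 (median -0.40). For receptors it was 5 of 5 (median -0.17), where all libraries gave 3 of 5 (median -0.095). In the fit without WT replicate 2 edgeR called 0 members, against 0.462% of all genes. There 1 (Cxcl16, higher) had an unadjusted p under 0.05, against 8.88%. Groups that did not overlap were found for 2 of the 18, Ccl5 and Ccl6, both lower in the libraries labelled Lpar3-/- (7.12% of all genes), and for 0 in the other direction (6.58%). Without WT replicate 2, 4 did not overlap and were lower (Ccl5, Ccl6, Ackr2 and Ackr4), against 12.4% of all genes, and 2 were higher (Cxcl16 and Cxcl1), against 12.2%.

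**Figure D2:**
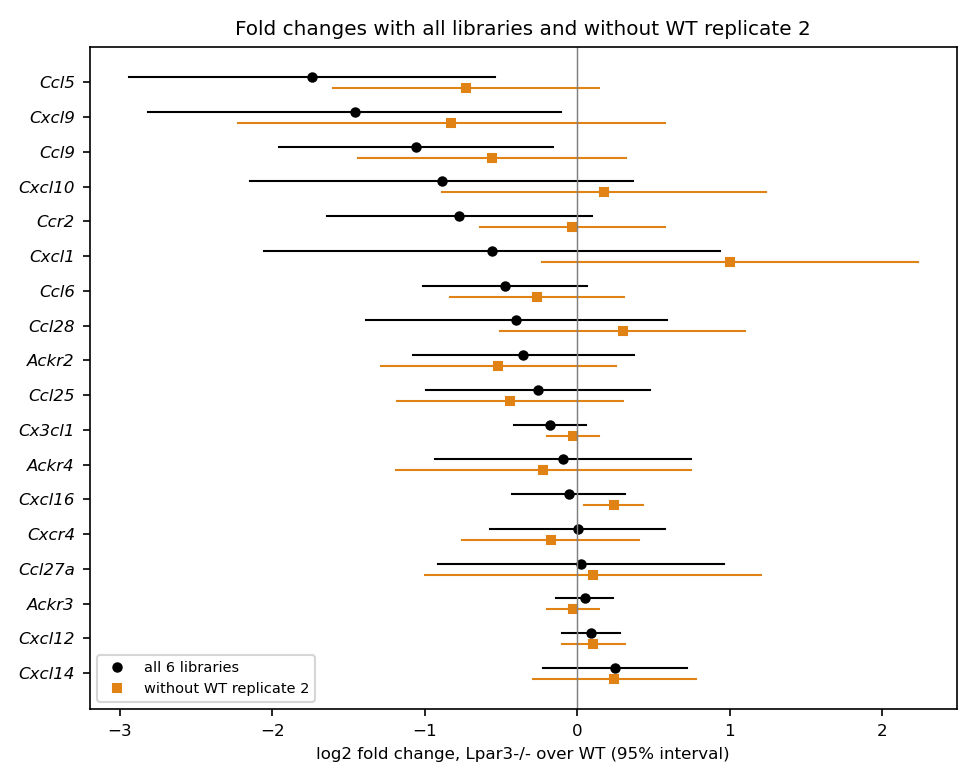
Log2 fold change of each tested member, Lpar3-/- over WT, with its 95% interval, from all 6 libraries (black circles) and without WT replicate 2 (orange squares). With all libraries the intervals of Ccl5, Cxcl9 and Ccl9 lie below 0, and without WT replicate 2 all 3 cross 0, while that of Cxcl16 lies above it; none of these genes passed the test over all genes.

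The signalling receptor genes Ccr2 and Cxcr4 did not separate the genotypes. Ccr2, the receptor of CCL2 that marks inflammatory monocytes, had 2.34, 2.90 and 2.31 CPM in the libraries labelled Lpar3-/-, against 2.60, 7.75 and 2.54 CPM in WT. WT replicate 2 was alone in being high, and the other 5 libraries overlapped. The log2 fold change of Ccr2 was -0.77 (SE 0.40, edgeR adjusted p = 0.609), and -0.033 without WT replicate 2. Cxcr4, the signalling receptor of CXCL12, had 3.30, 2.77 and 2.37 CPM in the libraries labelled Lpar3-/-, against 3.27, 2.07 and 3.08 CPM in WT, with a log2 fold change of 0.0023 (95% interval -0.57 to 0.57). The interval leaves a change of either sign possible at this depth, since Cxcr4 had only 35 to 58 counts per library.

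Most leukocyte markers had negative fold changes, as Ccr2 had, without passing the test. Of those tested, 4 of 4 T and NK cell, 3 of 3 B and plasma cell and 2 of 3 neutrophil markers were negative. Without WT replicate 2 these counts were 4 of 4, 2 of 3 and 2 of 3. The median log2 fold change moved from -0.65 to -0.38 for T and NK cells without that library. It moved from -0.38 to -0.055 for B and plasma cells, and from -0.92 to -0.13 for neutrophils. Dendritic cell markers were mixed, with 2 of 4 negative, and 1 of 4 with a median of 0.15 without WT replicate 2. Ptprc (CD45), carried by all leukocytes, had 5.70, 6.30 and 6.70 CPM in the libraries labelled Lpar3-/-, against 8.41, 12.0 and 9.19 CPM in WT, with groups that did not overlap (log2 fold change -0.66, SE 0.17, edgeR adjusted p = 0.168), and -0.50 without WT replicate 2. Of 13 tested macrophage and monocyte markers, Cx3cr1 among them, 12 were negative, against 51.1% of all genes. Their median was -0.56, and -0.22 without WT replicate 2. EdgeR called 0 of them, against 0.374% of all genes, and 4 were lower at an unadjusted p under 0.05, against 5.21%. Ly6c2, a monocyte marker, was at 1.59 (SE 0.69, edgeR adjusted p = 0.524) without WT replicate 2, where the other 12 were negative. The summed level of the macrophage and monocyte list was 112 to 132 CPM in the libraries labelled Lpar3-/- and 133 to 204 CPM in WT. In bulk tissue, fewer cells of a type and less RNA per cell cannot be told apart. In a ratio chosen after the values were seen, Ccr2 had 41, 46 and 34.5 counts per 100 Ptprc counts in the libraries labelled Lpar3-/-, against 30.9, 64.5 and 27.6 in WT. The ratios overlapped, and the part of leukocyte number in these results was not tested.

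The CC chemokines with the lowest p were Ccl5 and Ccl9. Ccl5 (ENSMUSG00000035042, chromosome 11, 83525778 to 83530518, minus strand), a chemokine made by T cells and injured tubules, had 0.626, 1.13 and 1.04 CPM in the libraries labelled Lpar3-/-, against 1.64, 6.27 and 1.45 CPM in WT. The genotypes did not overlap, but WT replicate 2 was 4.06 times the mean of the other WT libraries. The log2 fold change was -1.74 (SE 0.55, edgeR adjusted p = 0.304), and -0.73 (adjusted p = 0.645) without WT replicate 2. Ccl9 and Ccl6 are neighbouring mouse genes for macrophage-derived ligands of CCR1. Ccl9 had 0.911, 0.819 and 1.10 CPM in the libraries labelled Lpar3-/-, against 1.69, 3.14 and 1.09 CPM in WT, and replicate 3 of both genotypes lay close together. Its log2 fold change was -1.06 (SE 0.41, edgeR adjusted p = 0.435), and -0.56 without WT replicate 2. Ccl6 had 3.19, 2.33 and 2.83 CPM in the libraries labelled Lpar3-/-, against 3.44, 4.91 and 3.27 CPM in WT, a small separation with a log2 fold change of -0.47 (SE 0.25, edgeR adjusted p = 0.613), and -0.27 (adjusted p = 0.83) without WT replicate 2.

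The inducible CXC ligands were highest in WT replicate 2. Cxcl1, a neutrophil attractant, had 9, 10 and 14 counts in the libraries labelled Lpar3-/-, against 5, 38 and 6 in WT. Replicates 1 and 3 of WT lay below all 3 libraries labelled Lpar3-/-, and replicate 2 lay far above them. The log2 fold change was -0.56 (SE 0.68, edgeR adjusted p = 0.877) with all libraries and 1.00 (SE 0.57, adjusted p = 0.658) without WT replicate 2. Cxcl10, a ligand of CXCR3, had 12, 10 and 15 counts in the libraries labelled Lpar3-/-, against 9, 47 and 13 in WT, with log2 fold changes of -0.89 (edgeR adjusted p = 0.717) and, without WT replicate 2, 0.17 (adjusted p = 0.956). An exon of Cxcl10 overlaps one of Art3 on the opposite strand, and the strand setting of the counting is not given in the sources used here. Cxcl9, another ligand of CXCR3, had 4, 10 and 4 counts in the libraries labelled Lpar3-/-, against 16, 29 and 6 in WT, with log2 fold changes of -1.46 (edgeR adjusted p = 0.503) and -0.82 (adjusted p = 0.768).

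Cxcl1 and Cxcl2, and apart from them Cxcl9 and Cxcl10, lie in clusters on chromosome 5, and all 4 had their highest level in WT replicate 2. Their promoters are shown because these genes share their peak in WT replicate 2 and are textbook targets of NF-κB. In the other libraries their order differed, with Cxcl9 second highest and Cxcl1 lowest in WT replicate 1. The 250 bases before each RefSeq start (GRCm38.p6) are printed 5′ to 3′ on the gene's strand, and capitals mark matches on either strand to a simplified NF-κB site, which is GGGA, any 4 bases and CC, with overlapping matches joined. Cxcl12 is set beside them as the most abundant ligand.
Cxcl1, chr5:90890995-90891244, plus strand: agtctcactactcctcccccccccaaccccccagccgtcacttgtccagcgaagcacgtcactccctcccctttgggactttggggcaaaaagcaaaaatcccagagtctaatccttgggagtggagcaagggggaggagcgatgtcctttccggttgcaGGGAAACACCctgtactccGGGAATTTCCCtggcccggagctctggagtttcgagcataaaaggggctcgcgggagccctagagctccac
Cxcl2, chr5:90903649-90903898, plus strand: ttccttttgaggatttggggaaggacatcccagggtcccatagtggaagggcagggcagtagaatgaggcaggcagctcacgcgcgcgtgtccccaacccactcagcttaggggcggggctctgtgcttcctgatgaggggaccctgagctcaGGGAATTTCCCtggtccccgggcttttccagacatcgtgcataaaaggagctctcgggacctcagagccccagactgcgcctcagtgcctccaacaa
Cxcl9, chr5:92328080-92328329, minus strand: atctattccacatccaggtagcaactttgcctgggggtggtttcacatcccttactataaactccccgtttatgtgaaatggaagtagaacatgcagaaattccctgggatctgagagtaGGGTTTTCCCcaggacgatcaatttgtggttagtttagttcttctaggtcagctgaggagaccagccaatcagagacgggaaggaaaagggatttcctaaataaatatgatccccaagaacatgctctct
Cxcl10, chr5:92348890-92349139, minus strand: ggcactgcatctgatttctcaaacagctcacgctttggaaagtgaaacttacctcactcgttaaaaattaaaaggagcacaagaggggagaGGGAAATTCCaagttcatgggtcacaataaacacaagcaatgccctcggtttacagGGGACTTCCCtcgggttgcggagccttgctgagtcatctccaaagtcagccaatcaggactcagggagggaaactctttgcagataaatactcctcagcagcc
Cxcl12, chr6:117168285-117168534, plus strand: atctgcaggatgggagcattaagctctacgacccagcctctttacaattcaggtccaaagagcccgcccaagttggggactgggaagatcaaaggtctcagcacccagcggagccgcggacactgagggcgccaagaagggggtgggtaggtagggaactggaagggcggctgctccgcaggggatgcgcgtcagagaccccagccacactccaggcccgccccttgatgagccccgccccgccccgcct
Matches began at 3 positions in Cxcl1, at 2 in Cxcl2 and in Cxcl10, at 1 in Cxcl9, and at none in Cxcl12. The 16 tested members with a promoter in the table had 19 windows, of which 6 held a match, in Cxcl1, Cxcl9, Cxcl10, Ackr2 and 2 of the 3 windows of Ccl27a. Of 21262 windows of protein-coding genes, 19.62% held one, and of all 32851 windows 17.63%. The core of the hypoxia response element, ACGTG on either strand, was found in 2 of the 19 windows, those of Cxcl1 and Ackr4, and in 17.76% of the protein-coding windows. Cxcl1, Cxcl2, Cxcl9 and Cxcl10 were chosen by their peak and as known targets, so their matches are no comparison. Ccr2, Ccl9 and Ccl28 held no match to the NF-κB site. In WT replicate 2 they were 3.06, 2.79 and 2.51 times the mean of the other 5 libraries. Ackr2, which held a match, was at 0.823 times. Whether matches go with the peak was not tested. A match describes the letters of the window and is not evidence of binding.

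**Figure D3:**
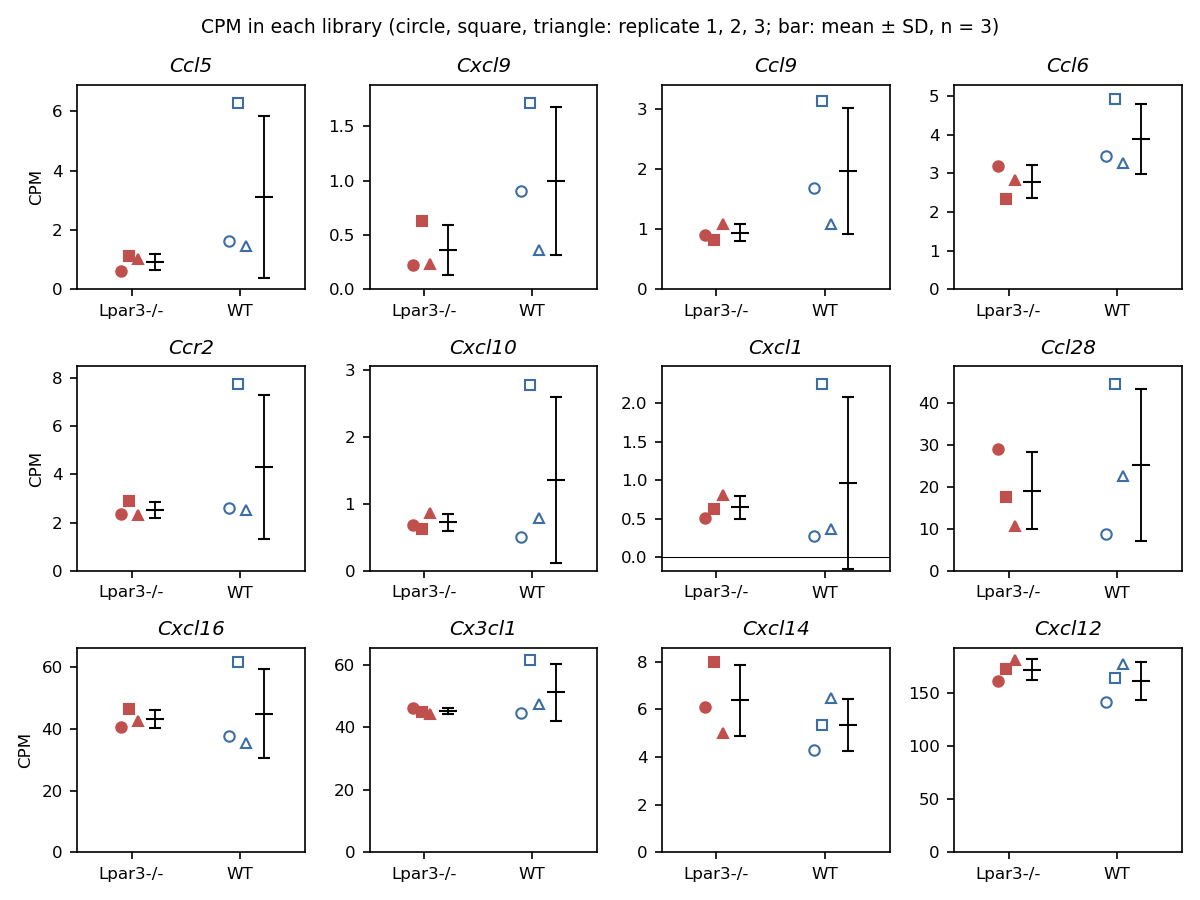
CPM of 12 members in each library, with filled red symbols for Lpar3-/- and open blue symbols for WT (circle, square and triangle for replicates 1, 2 and 3) and the mean ± SD beside them. Ccl5 separates the genotypes, with 0.626 to 1.13 CPM in Lpar3-/- and 1.45 to 6.27 CPM in WT, whereas for Ccr2, Cxcl10 and Cxcl1 the open square of WT replicate 2 stands alone above the other 5 libraries.

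The most abundant ligand, Cxcl12, and its scavenger Ackr3 showed small differences with narrow intervals. Cxcl12 had 161, 172 and 181 CPM in the libraries labelled Lpar3-/-, against 141, 164 and 177 CPM in WT. Its fold change was 0.091 on the log2 scale (95% interval -0.10 to 0.28, edgeR adjusted p = 0.834). Ackr3 averaged 69.0 ± 4.56 CPM in the libraries labelled Lpar3-/- and 66.6 ± 6.57 CPM in WT (SD, n = 3 each), with a log2 fold change of 0.049 (95% interval -0.14 to 0.24). Cxcl12 and Ackr3 rested on 998 to 3127 counts per library.

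Cx3cl1 (fractalkine), which holds CX3CR1-bearing phagocytes to the vessel wall and tubule, had 46, 45 and 44.2 CPM in the libraries labelled Lpar3-/-, against 44.5, 61.4 and 47.4 CPM in WT. Apart from WT replicate 2 the libraries were alike, and the log2 fold change was -0.18 (SE 0.11, edgeR adjusted p = 0.685), or -0.028 without that library. Cxcl16, which binds CXCR6 on T cells, had 40.5, 46.4 and 42.5 CPM in the libraries labelled Lpar3-/-, against 37.5, 61.5 and 35.5 CPM in WT. Its log2 fold change was -0.057 (SE 0.17, edgeR adjusted p = 0.958) with all libraries and 0.24 (SE 0.089, adjusted p = 0.421) without WT replicate 2, when the libraries labelled Lpar3-/- all lay above WT. An exon of Cxcl16 overlaps one of Zmynd15 on the opposite strand.

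Ccl28 varied most among the abundant ligands, in both genotypes. It had 29.1, 17.7 and 10.8 CPM in the libraries labelled Lpar3-/-, against 8.75, 44.7 and 22.6 CPM in WT. The coefficient of variation was 48.2% in the libraries labelled Lpar3-/- and 71.5% in WT, where the medians over all genes tested were 8.08% and 10.4%. The log2 fold change was -0.40 (SE 0.45, edgeR adjusted p = 0.868), and 0.30 without WT replicate 2. Cxcl14, an epithelial chemokine, had 6.09, 8.00 and 5.03 CPM in the libraries labelled Lpar3-/-, against 4.29, 5.33 and 6.47 CPM in WT, with a log2 fold change of 0.25 (SE 0.22, edgeR adjusted p = 0.815).

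None of the remaining tested members was called, and their intervals all held 0. Ackr2, a scavenger of inflammatory CC chemokines, averaged 1.47 ± 0.442 CPM in the libraries labelled Lpar3-/- and 1.88 ± 0.394 CPM in WT (SD, n = 3 each), with a log2 fold change of -0.35 (SE 0.33), and -0.52 without WT replicate 2. Ackr4, a scavenger of CCL19, CCL21 and CCL25, had 11, 13 and 14 counts in the libraries labelled Lpar3-/-, against 15, 11 and 15 in WT, with a log2 fold change of -0.095 (SE 0.38), and -0.22 without WT replicate 2. The value was -0.26 (SE 0.34) for Ccl25, or -0.44 without WT replicate 2, and 0.024 (SE 0.43) for Ccl27a on chromosome 4, or 0.10 without it. Exons of Ackr4, Ccl25 and Ccl27a overlap those of Acad11, Elavl1 and Il11ra1 on the opposite strand, so their reads are less certain.

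Most of the counts of the 34 members under the filter came from WT replicate 2 in the WT group. Together they had 92, 96 and 78 counts in the libraries labelled Lpar3-/-, against 82, 298 and 98 in WT. WT replicate 2 had the highest level for 18 of the 34 and at least 1 count for 30, where the other libraries had 20 to 23. Ccl2, the main monocyte attractant, had 2, 6 and 1 counts in the libraries labelled Lpar3-/-, against 1, 58 and 8 in WT. Of the ligands induced with it, Ccl12 had 1, 1 and 2 counts, against 2, 18 and 1, and Cxcl2 had 0, 0 and 0, against 0, 11 and 2. The receptors Cxcr6 (5, 8 and 9 counts, against 14, 34 and 8) and Cxcr3 (5, 5 and 3 counts, against 3, 28 and 12), both of activated T cells, were also highest in WT replicate 2. Ccl21a on the unplaced scaffold JH584294.1 went another way, with 29, 1 and 5 counts in the libraries labelled Lpar3-/-, against 13, 1 and 6 in WT. Ccr1, a receptor of CCL3, CCL5, CCL6 and CCL9, had 3, 4 and 10 counts in the libraries labelled Lpar3-/-, against 5, 20 and 2 in WT, and Ccl8, another monocyte attractant, had 4, 7 and 2, against 5, 18 and 9. Cxcl13, which draws B cells through CXCR5, had 4, 9 and 11 counts in the libraries labelled Lpar3-/-, against 8, 6 and 4 in WT, and so did not follow WT replicate 2. All other members under the filter had at most 13 counts in any library. They were the ligands Ccl1, Ccl3, Ccl4, Ccl7, Ccl11, Ccl17, Ccl20, Ccl22, Ccl24, a scaffold copy of Ccl27a, Cxcl3, Cxcl5, Cxcl15, Cxcl17 and Xcl1, and the receptors Ccr3, Ccr4, Ccr6, Ccr7, Ccr8, Ccr9, Ccr10, Cxcr2, Cxcr5 and Xcr1.

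Across the 18 tested members, WT replicate 2 was the highest library for 10, against 21.9% of all genes tested. It was at least 2-fold above the mean of the other 5 libraries for 7 of the 18, against 1.54% of all genes. That share is not matched for abundance or spread. The tested members also varied more among the libraries labelled Lpar3-/-, with a median coefficient of variation of 16.9%, against 8.08% over all genes. The lists of other leukocytes were highest in WT replicate 2. Markers of T and NK cells summed to 3.70 to 7.22 CPM in the libraries labelled Lpar3-/- and to 6.60, 14.0 and 8.59 CPM in WT, and those of B and plasma cells to 6.55 to 7.49 CPM and to 7.79, 23.4 and 11.7 CPM. Dendritic cell markers summed to 11.8 to 13.6 CPM in the libraries labelled Lpar3-/- and 11.2 to 20.1 CPM in WT, and neutrophil markers to 2.51 to 2.60 CPM and 2.88 to 6.15 CPM, with Elane at 0 in all libraries. Fibroblast markers summed to 192 to 204 CPM in the libraries labelled Lpar3-/-, against 166, 299 and 226 CPM in WT, while endothelial markers (503 to 564 CPM, against 523 to 557 CPM) and proximal tubule markers (6507 to 7030 CPM, against 6248 to 6735 CPM) overlapped, as did those of podocytes and the collecting duct. The sum of the 2 thick ascending limb markers went the other way without overlap. It was 3933 to 4169 CPM in the libraries labelled Lpar3-/- and 3602, 3220 and 3466 CPM in WT. Without WT replicate 2 the log2 fold changes were 0.34 (SE 0.0745) for Slc12a1 and 0.10 (SE 0.0738) for Umod. The sum of the lymph node and lymphatic list, which holds Ccl21a, was also higher without overlap. It was 15.9 to 20.4 CPM in the libraries labelled Lpar3-/- and 14.6, 10.5 and 14.7 CPM in WT. Its genes were mixed in sign, with 1 of 3 tested genes negative. Without WT replicate 2 the log2 fold changes were 0.38 (SE 0.14) for Prox1, 0.30 (SE 0.865) for Ccl21a, -0.87 (SE 0.558) for Lyve1 and -0.056 (SE 0.461) for Cr2. Their edgeR adjusted p ran from 0.421 to 0.986, so these signs are not resolved. Adipocyte markers were highest in WT replicate 1, at 114 to 164 CPM in the libraries labelled Lpar3-/- and 262, 187 and 147 CPM in WT. The dendritic and neutrophil lists each hold a chemokine receptor gene, Xcr1 and Cxcr2, and the part of these cells in the chemokine levels was not tested.

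**Figure D4:**
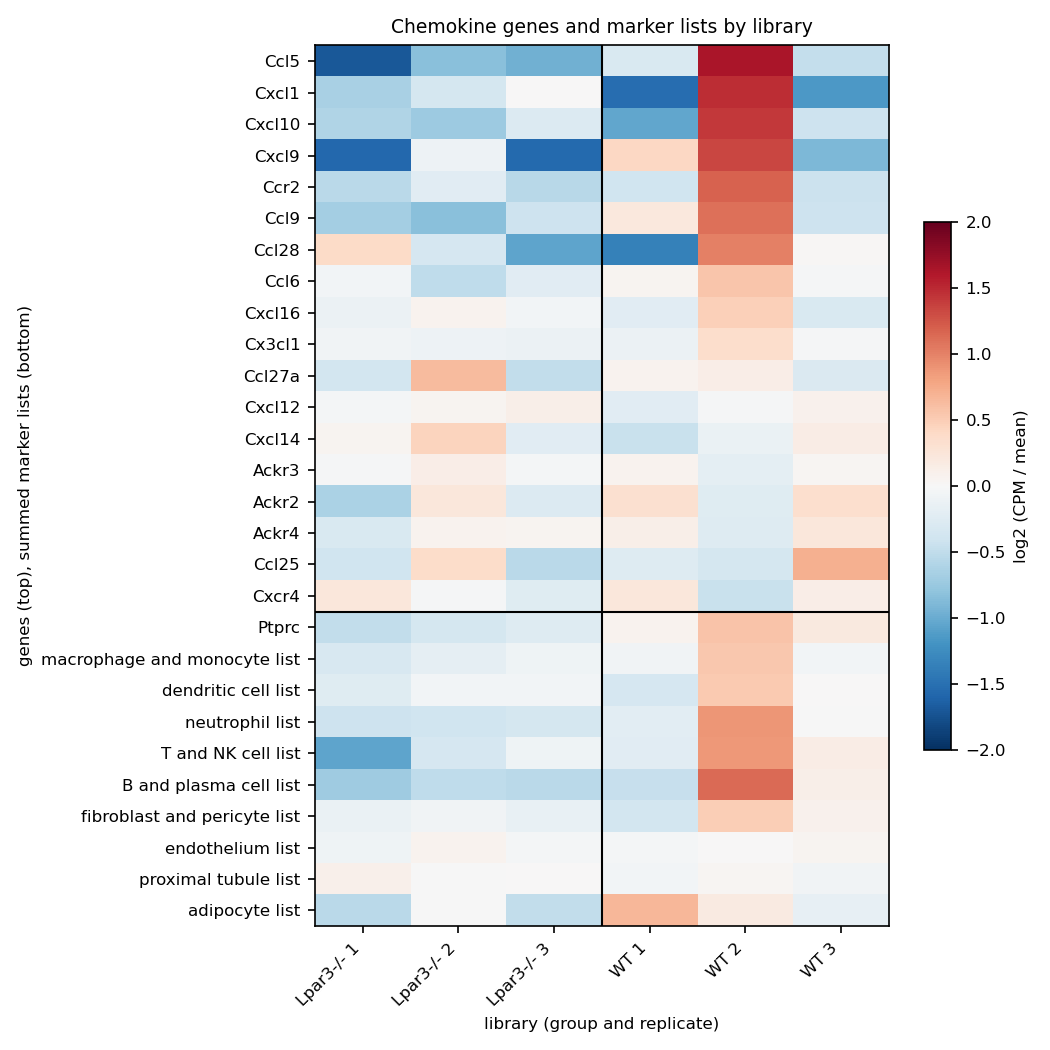
Log2 of the CPM over the mean of the 6 libraries (colour) for each tested chemokine gene (upper rows, ordered by the excess of WT replicate 2) and for Ptprc and the summed marker lists (lower rows), with Lpar3-/- libraries left and WT libraries right. Ccl5, at 5.33 times the mean of the other 5 libraries, heads the genes that are red in WT replicate 2, and the leukocyte lists are red in the same column while the endothelial and proximal tubule lists are pale.

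Genes that act around the chemokines were also not called. Over all genes tested, edgeR called 0.374%, 5.21% were lower at an unadjusted p under 0.05, and 51.1% were negative. Of 14 tested inducers and NF-κB genes, 12 were negative with a median log2 fold change of -0.21 (-0.075 without WT replicate 2), edgeR called 0 and 2 were lower at an unadjusted p under 0.05. Relb, an NF-κB subunit, had 6.04, 6.49 and 5.2 CPM in the libraries labelled Lpar3-/-, against 7.90, 9.23 and 11.2 CPM in WT, where replicate 3 and not replicate 2 was highest (log2 fold change -0.68, SE 0.17, edgeR adjusted p = 0.165). Il1b and Tnf, the classical cytokine inducers, did not pass the filter, and Il6 and Ifng had 0 counts in all libraries. All 8 tested leukocyte adhesion genes were negative with a median of -0.61 (7 of 8 and -0.24 without WT replicate 2), with 0 called and 5 lower at an unadjusted p under 0.05. Vcam1, the endothelial ligand of lymphocytes, had 9.05, 8.44 and 7.17 CPM in the libraries labelled Lpar3-/-, against 7.45, 46.0 and 11.4 CPM in WT, with a log2 fold change of -1.39 and of -0.20 without WT replicate 2.

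Of 17 tested genes of chemokine receptor signalling, 15 were negative, with a median of -0.16 and of -0.19 without WT replicate 2. EdgeR called 0 of them, and 4 were lower at an unadjusted p under 0.05. Over all genes, 51.1% were negative, 0.374% were called and 5.21% were lower at that threshold. Dock2, which links chemokine receptors to Rac in leukocytes, had 1.94, 0.882 and 1.27 CPM in the libraries labelled Lpar3-/-, against 2.03, 3.67 and 2.36 CPM in WT, and Arrb2, which encodes an arrestin, averaged 8.54 ± 0.854 CPM and 11.0 ± 1.56 CPM (SD, n = 3 each). Of 13 tested genes that bind, cut or shed chemokines, 10 were negative with a median of -0.10 (8 of 13 and -0.027 without WT replicate 2), and edgeR called 0 while 2 were lower at an unadjusted p under 0.05. Ext1, which builds the heparan sulfate chains that hold chemokines on cell surfaces, averaged 89.8 ± 4.40 CPM in the libraries labelled Lpar3-/- and 106 ± 4.29 CPM in WT (SD, n = 3 each), without overlap (log2 fold change -0.24, edgeR adjusted p = 0.234).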

How the data were processed

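The authors deposited raw read counts per gene, with no scaling. GRCm38, HISAT2 2.0.5, DESeq2 1.20.0 and featureCounts 1.5.0-p3 are named in the submitters' processing notes. The authors' FPKM values served for levels between genes and an alternative test. Of 54909 rows, 377 without a gene name (0.259% to 0.362% of the counts) were left out. The quasi-likelihood test of edgeR 4.0.16 (R 4.3.3) used all 6 libraries, TMM, the default filter for the groups and Benjamini-Hochberg adjustment over all genes tested. CPM use TMM-scaled library sizes. Each SE is the absolute fold change over the root of F. The alternatives were DESeq2 1.42.0, limma-voom (limma 3.58.1), other normalizations and filters, limma on log2(FPKM + 1) and log2(FPKM + 0.1) (mean FPKM of 0.1 or more), a block for the replicate number, and each library left out. Tests were run on simulated data first. The naming rule also takes 1 row that is not reported here and is left out of every count of members. All 64 rows had the same ID and coordinates in GENCODE M21. Promoters are from RefSeq. Members and lists were chosen with earlier results of these data known. Values per library are given for the 10 tested members with the lowest p, the 5 ligands and 5 receptors with the highest FPKM, and a set of well-known members. Others are named by the same list, and of the pathway lists up to 4 genes with the lowest p. Pf4 was named outside this rule, as a relative that did not follow WT replicate 2.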

Additional observations from a re-analysis of the deposited data

How the results depend on the processing

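EdgeR called 0 members in all fits but that without a filter. That fit called 3 of 52 members, Ccl2, Ccl5 and Ccl28, and 520 of 26645 genes. Ccl2 had 58 of its 67 WT counts in replicate 2. The SE of Ccl28 was 0.115 without the filter, against 0.453 with it, at nearly the same fold change. DESeq2 called 0 of 23 members and 173 of 15793 genes. Limma on log2(FPKM + 1) and log2(FPKM + 0.1) called 0 of 35 members each, with 9 and 13 of 18499 genes. With each library left out in turn, 0 members and 12 to 149 genes were called, the fewest without replicate 1 or 3 of Lpar3-/- and the most without WT replicate 1. The count of negative members was 35 of 52 without a filter and by DESeq2, and 26 of 35 in both FPKM fits, where more members were tested, and ran from 11 to 18 with a library left out. Their median ran from -0.45 to -0.030, the last without WT replicate 2. With 1 library left out, the log2 fold change of Cxcl1 ran from -1.0 to 1.0, that of Ccl28 from -0.83 to 0.30, that of Cxcl10 from -1.29 to 0.17, that of Cxcl16 from -0.20 to 0.24, that of Cxcr4 from -0.17 to 0.13, that of Ackr4 from -0.22 to 0.022, that of Ccl25 from -0.59 to 0.17, that of Ccl27a from -0.41 to 0.23 and that of Ackr3 from -0.030 to 0.097. The highest value was that without WT replicate 2 for Cxcl1, Ccl28, Cxcl10 and Cxcl16, and the lowest was that without it for Cxcr4, Ackr3 and Ackr4. For Ackr4 that value kept the sign of the fit with all libraries. The sign also turned without Lpar3-/- replicate 1 for Cxcr4 (-0.13) and without Lpar3-/- replicate 2 for Ackr3 (-0.0054), and for Ackr4 without Lpar3-/- replicate 1 (0.022) or WT replicate 3 (0.0040). For Ccl25 it turned without WT replicate 3, and for Ccl27a without Lpar3-/- replicate 2 or WT replicate 3 (-0.085). By limma-voom the value of Cxcl1 was 0.044. The cause of these moves was not tested. With the replicate number as a block, edgeR called 0 of 18 members and 80 of 15225 genes, and 14 members were negative with a median of -0.23. Same-numbered libraries deviated together with correlations of 0.0107, 0.0307 and 0.0673, so the numbers were not taken as pairs. Members with few counts had wide intervals: the median SE was 0.36 over the 18 tested members and 0.12 over all genes.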

Other observations

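Relatives of the chemokine genes that lie outside the naming rule had the same order of libraries in part. Cx3cr1, the receptor of fractalkine, had 40, 73 and 48 counts in the libraries labelled Lpar3-/-, against 55, 131 and 55 in WT (log2 fold change -0.56, SE 0.37, edgeR adjusted p = 0.724, and -0.0057 without WT replicate 2). Cxcl11, the third ligand of CXCR3, is annotated as a polymorphic pseudogene and so fell outside the rule; it had 1, 4 and 0 counts in the libraries labelled Lpar3-/-, against 3, 21 and 7 in WT, and did not pass the filter. Cd74, the MHC class II chaperone that also binds MIF, had 123, 132 and 143 CPM in the libraries labelled Lpar3-/-, against 138, 345 and 149 CPM in WT (log2 fold change -0.67, SE 0.27, edgeR adjusted p = 0.456, and -0.11 without WT replicate 2). Pf4, a chemokine of platelets and megakaryocytes, did not follow WT replicate 2, with 11, 9 and 21 counts in the libraries labelled Lpar3-/-, against 23, 17 and 7 in WT. Its log2 fold change without WT replicate 2 was -0.11 (SE 0.56, edgeR adjusted p = 0.98).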
